A study of Mus musculus with 6 samples.

Results

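The 6 genes described here encode 5 receptors for the constant (Fc) part of immunoglobulin G and the signalling chain that several of them share. They are Fcgr2b, Fcgr1, Fcgr3, Fcgr4, Fcgrt and Fcer1g, and they were taken by name from a table of 23337 genes. The family was chosen by RPKM differences of some of its genes between the genotypes in these same libraries, so the values of all 6 in that comparison are given as a description and without p-values. Levels are in RPKM, reads scaled to gene length and to the reads of the library, and can be compared between genes. Of the 6 genes, 3 (Fcgr2b, Fcer1g and Fcgrt) reached 1 RPKM in at least 3 libraries and were among the 11035 genes tested. These 3 lay above 1 RPKM in every library. Fcgr1, Fcgr3 and Fcgr4 stayed below 1 RPKM in every library and were not tested.

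RNA-seq was made from endothelial cells of collagenase-digested mouse spleen, sorted as cells with CD31 and without CD45. All mice were C57BL/6, either wild type (WT) or knockout (KO) for Stab1, the gene of stabilin-1 or Clever-1, an endocytic receptor found on sinusoids, lymphatics and some macrophages. There were 3 libraries per genotype, called here WT 1, WT 3, WT 4, KO 2, KO 3 and KO 4 after the numbers in the deposited columns, and no treatment. Values listed per library follow that order. The labels give neither the age of the mice nor how the knockout allele was made, and do not tell whether the libraries came from separate animals, so the spread between libraries may be technical.

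Depth lay between 40419441 and 51680382 reads per library. Stab1 was at 21.6 to 43.6 RPKM in the WT libraries and at 2.32 to 2.62 RPKM in the KO libraries, and its relative Stab2 was at 166.5 ± 48.7 and 174 ± 13.0 RPKM (mean ± SD, n = 3 per group, as in all means that follow). All 10 endothelial markers were detected, and together they held 3589 to 4171 RPKM in WT and 4047 to 4581 RPKM in KO libraries, while Ptprc, which encodes CD45, did not pass 0.11 RPKM. The labelled cell type and genotype were therefore matched by their defining genes. KO 4 differed from the other 2 KO libraries in several genes below. The log2 differences of Fcgr2b and Fcer1g and the calls in the signalling lists are given with and without it. Ratios, spreads, marker sums and correlations are given with it only.

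Receptors for immunoglobulin G come in activating and inhibitory forms. Activating receptors, such as those encoded by Fcgr1, Fcgr3 and Fcgr4, have no signalling motif of their own in the mouse and work through the Fc receptor gamma chain, encoded by Fcer1g, whose tail carries an immunoreceptor tyrosine-based activation motif (ITAM). The receptor encoded by Fcgr2b needs no such partner, carries an inhibitory motif (ITIM) in its own tail, restrains B cells and myeloid cells, and takes up small immune complexes in sinusoidal endothelium of the liver. The neonatal Fc receptor, encoded by Fcgrt, is built like a class I MHC molecule with beta-2-microglobulin as its light chain, and it returns immunoglobulin G and albumin from endosomes to the blood.

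The opposite signalling parts of the pair of genes that differed most between the genotypes are shown first. Both are coding stretches on the minus strand of GRCm38, spliced across exon borders and written 5′ to 3′ in the gene's sense. The Fcgr2b stretch lies within chr1:170961041-170961213, and capitals mark the isoleucine, tyrosine and leucine codons of its ITIM. The Fcer1g stretch lies within chr1:171229868-171231010, and capitals mark the tyrosine and leucine codons of its ITAM, which has a pair of each.
Fcgr2b ITIM: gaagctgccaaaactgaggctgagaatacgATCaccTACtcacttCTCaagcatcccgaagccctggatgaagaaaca
Fcer1g ITAM: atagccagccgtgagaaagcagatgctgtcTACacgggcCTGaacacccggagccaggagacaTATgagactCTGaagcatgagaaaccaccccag

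Fcgr2b and Fcgr3 also share sequence, which bears on how far their reads can be told apart. They hold 1 pair of coding exons of 255 bases that differ at 5 positions (98.0% identity), and a second pair of 255 bases that differs at 14 (94.5% identity), whereas the remaining coding stretches compared were 37.4% to 41.7% identical. The closest pair is shown, both on the minus strand of GRCm38, with capitals at the 5 bases that differ. The Fcgr2b exon is chr1:170966446-170966700 and the Fcgr3 exon is chr1:171053939-171054193.
Fcgr2b exon: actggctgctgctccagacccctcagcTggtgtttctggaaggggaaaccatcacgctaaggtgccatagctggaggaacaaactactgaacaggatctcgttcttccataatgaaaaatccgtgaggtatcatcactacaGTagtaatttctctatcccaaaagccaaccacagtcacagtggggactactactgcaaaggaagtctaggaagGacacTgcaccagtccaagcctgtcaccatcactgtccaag
Fcgr3 exon: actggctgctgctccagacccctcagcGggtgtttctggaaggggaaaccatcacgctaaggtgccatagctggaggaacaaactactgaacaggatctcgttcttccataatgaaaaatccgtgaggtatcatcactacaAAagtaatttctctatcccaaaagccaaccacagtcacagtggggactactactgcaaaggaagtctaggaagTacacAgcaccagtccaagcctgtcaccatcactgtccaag
Of the 50-base windows in the Fcgr3 transcript, 166 of 1298 (12.8%) also occurred in the Fcgr2b transcript, where they were 166 of 1529 (10.9%). No other pair among the 6 transcripts shared a window of 50 or of 25 bases. How the deposited counting treated reads from these windows is not given in the sources used here.

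The inhibitory receptor gene differed most between the genotypes. Fcgr2b (chr1:170960558-170976071, minus strand, GRCm38) stood at 169.9, 135 and 63.9 RPKM in the WT libraries, against 23.1, 22.1 and 15.7 RPKM in the KO libraries. Every WT library was above every KO library, and the lowest WT library had more than the highest KO library by a wide margin. The means were 123 ± 54.0 RPKM in WT and 20.3 ± 4.0 RPKM in KO, a level 6.05-fold lower in the knockout. On the log2(RPKM + 0.5) scale the difference, KO minus WT, was -2.47 with a standard error (SE) of 0.31, the sixth lowest of the 11035 genes tested. These values rest on 4510 to 10953 reads per WT library and 993 to 1776 reads per KO library, so counting error is small beside the spread between libraries.

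That spread was wide within the WT group. The highest WT library held 2.66 times the Fcgr2b level of the lowest, and the SD of the log2 values within WT, 0.73, was larger than that of 98.8% of tested genes. Among the KO libraries the highest held 1.47 times the lowest, and the SD of 0.30 was larger than that of 85.8% of genes. Fcgr2b was the 716th most abundant gene of those tested in WT and the 4033rd in KO. WT 4 was the low WT library, and KO 4 the low KO library. Left out in turn, each library kept the difference between -2.89 (without WT 4) and -2.18 (without WT 1), and without KO 4 it was -2.30.

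Fcer1g, the gamma chain, was also lower in the knockout, but varied in the other group. Its gene (chr1:171229572-171234349, minus strand) measured 232, 226 and 215 RPKM in WT and 55.5, 66.5 and 115 RPKM in KO. The groups did not overlap, and KO 4 lay between the other KO libraries and the WT group. The means were 224.5 ± 8.32 RPKM in WT and 78.9 ± 31.5 RPKM in KO, a level 2.85-fold lower. The log2 difference was -1.57 with an SE of 0.22, the 23rd lowest of the tested genes, from 6357 to 7532 reads per WT library and 1816 to 3081 per KO library. Without KO 4 it was -1.88, and leaving out any other library gave values between -1.60 and -1.36.

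The WT libraries were close to each other in Fcer1g, with a coefficient of variation of 3.71%, and their log2 SD of 0.05 was larger than that of only 6.99% of genes. In the KO libraries the coefficient of variation was 39.9% and the log2 SD of 0.54 was larger than that of 97.9% of genes. Fcgr2b and Fcer1g thus differed in which genotype held the variable libraries. WT 4, low in Fcgr2b, was not set apart in Fcer1g, and KO 4, high in Fcer1g, was the lowest of all 6 libraries in Fcgr2b. In a bulk sample, fewer cells of a type that holds these transcripts and less of the transcript per cell cannot be told apart.

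Fcgrt, the neonatal receptor, was by far the most abundant of the 6 and was higher in the KO libraries. The gene (chr7:45092993-45103822, minus strand) gave 837, 764 and 708 RPKM in WT and 1055, 1076 and 918 RPKM in KO. The lowest KO library lay above the highest WT library. The means of 769.7 ± 64.9 and 1017 ± 85.9 RPKM made it the 52nd most abundant tested gene in WT and the 35th in KO. The log2 difference was 0.40 with an SE of 0.11, which did not pass the threshold of the fit, and leaving out single libraries kept it between 0.34 and 0.47.

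The activating receptors were near the limit of detection in both genotypes. Fcgr3 (chr1:171051169-171065915, minus strand), the low-affinity activating receptor, had 51, 54 and 18 reads in WT and 29, 21 and 18 in KO. In RPKM these were 0.904, 0.789 and 0.291 in WT and 0.431, 0.305 and 0.326 in KO, and the groups overlapped because WT 4 was the lowest library of all. As with Fcgr2b, WT 1 and WT 3 were the high libraries, and the exon shared by both genes limits how far the few Fcgr3 reads can be assigned. The part of the shared reads in this likeness was not tested.

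Fcgr4 (chr1:171018926-171029761, plus strand), an activating receptor of monocytes, macrophages and neutrophils, had 0, 8 and 5 reads in WT and 0, 3 and 0 in KO. A count of 0 allows up to 3 reads, which for Fcgr4 is 0.0472 to 0.0588 RPKM depending on the library. Fcgr1 (chr3:96282909-96293969, minus strand), the high-affinity receptor of monocytes and macrophages, had 1 read in KO 2 and none elsewhere, where 3 reads would be 0.0228 to 0.0284 RPKM. No difference between genotypes was detectable for either gene at this depth. These limits cover counting error only.

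Of the 3 genes tested, Fcgr2b and Fcer1g passed the threshold of the fit across all genes (limma, adjusted p under 0.05) in the lower direction, where 1.27% of all tested genes passed, and none passed in the higher direction, where 0.671% did. All 3 had groups that did not overlap, which held for 20.3% of tested genes, 9.57% with KO lower and 10.7% with KO higher. Since the genes were chosen with this comparison known, nothing is read from these shares. In the authors' deposited table of 13742 genes, Fcgr2b and Fcer1g were among 117 genes listed as lower, with log2 differences of -2.49 and -1.60, and Fcgrt, at 0.40, was in neither list. Fcgr3 had -0.74 there and was in neither list, and Fcgr1 and Fcgr4 were not in that table.

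**Figure D1:**
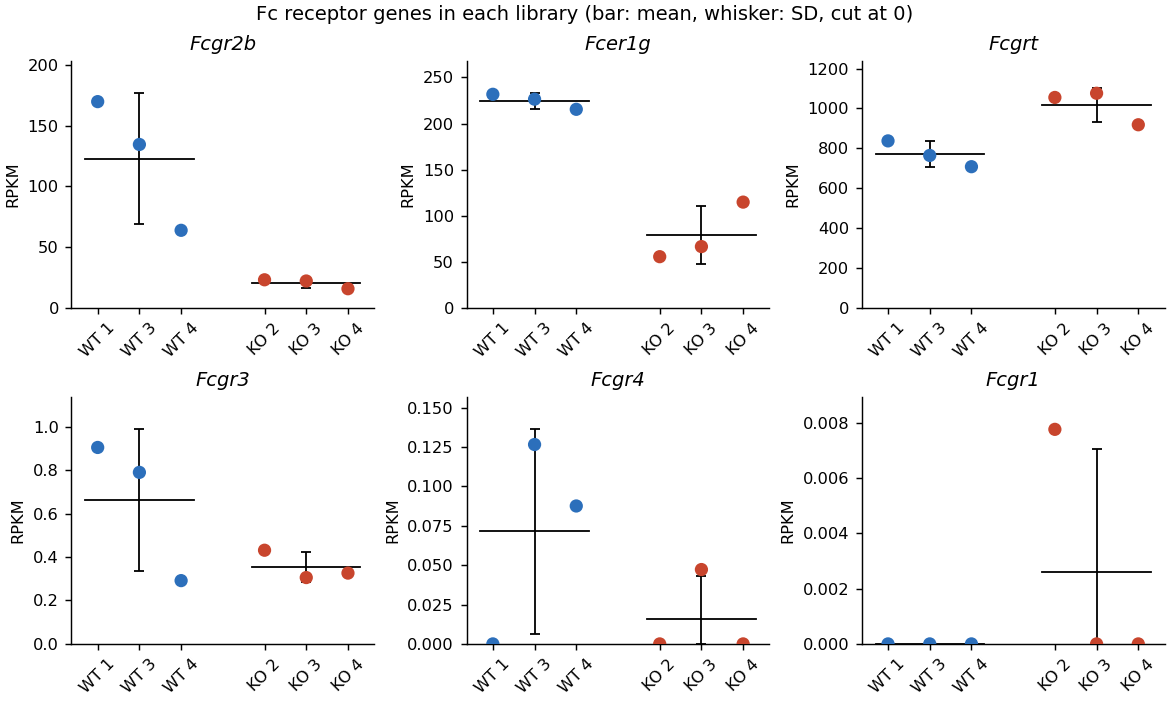
Level of each Fc receptor gene (RPKM, vertical axis from 0, with its own scale in each panel) in the 3 WT libraries (blue) and the 3 KO libraries (red); the bar is the group mean and the whisker the SD, drawn no lower than 0. Fcgr2b and Fcer1g were lower in every KO library, Fcgrt was higher in every KO library, and Fcgr3, Fcgr4 and Fcgr1 stayed below 1 RPKM throughout.

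Ratios within a library set the receptors against each other without reference to other libraries. The inhibitory receptor exceeded the 3 activating receptors in every library. Fcgr2b over the sum of Fcgr1, Fcgr3 and Fcgr4 was 188, 147 and 169 in WT, and 52.7, 62.7 and 48.3 in KO. The ratio was thus lower in all KO libraries while the inhibitory gene remained the more abundant by far, and it rests on 18 to 62 reads of the activating genes per library. The family was chosen by differences of some of its genes between the genotypes. The direction of this and the following ratios between genotypes is therefore a description only.

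The gamma chain was also abundant beside the receptors that are known to use it. The 11 gamma-chain receptor genes looked at (Fcgr1, Fcgr3, Fcgr4, Fcer1a, Gp6, Clec4e, Clec4n, Clec4d, Oscar, Ncr1 and Klrb1c) held together 2.84 to 6.62 RPKM in WT and 1.83 to 3.50 RPKM in KO libraries, against 215 to 232 and 55.5 to 115 RPKM of Fcer1g. Fcer1g over Fcgr2b was 1.36, 1.68 and 3.37 in WT and 2.40, 3.01 and 7.29 in KO. These groups overlapped, with the highest ratio of each genotype in the library numbered 4. Fcer1g over Tyrobp, another ITAM adaptor of myeloid and NK cells, was 54.1, 70.4 and 65.5 in WT and 33.2, 23.0 and 42.8 in KO, so Fcer1g was in excess of Tyrobp everywhere and by less in each KO library.

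For the neonatal receptor, the light chain was in excess in all libraries. B2m, which encodes beta-2-microglobulin, was 13.7, 9.96 and 13.6 times as high as Fcgrt in WT and 7.06, 6.25 and 8.81 times as high in KO. The KO ratios were all below the WT ratios. B2m itself was at 9564 ± 1934 RPKM in WT and 7422 ± 684 RPKM in KO, and this difference did not pass (log2 -0.35, limma adjusted p = 0.329).

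**Figure D2:**
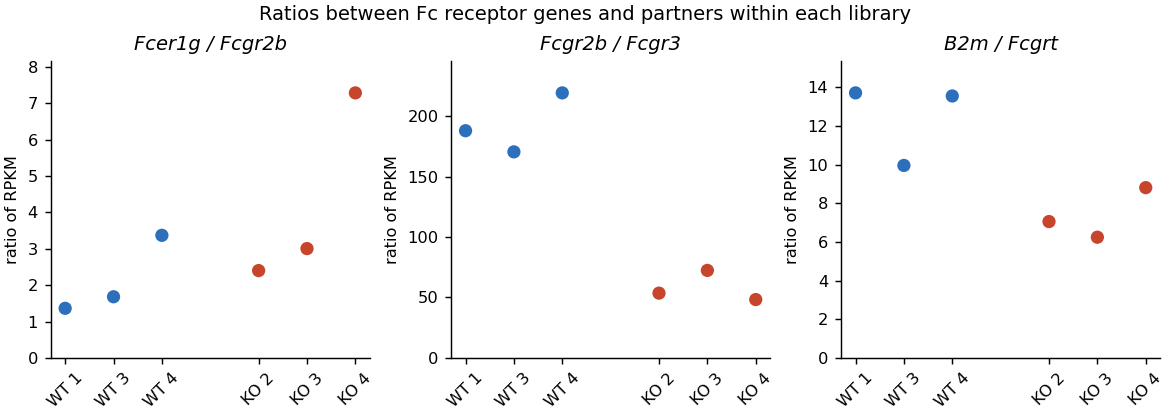
Ratio of RPKM values (vertical axes from 0) within each WT (blue) and KO (red) library for Fcer1g over Fcgr2b, Fcgr2b over Fcgr3 and B2m over Fcgrt. The first ratio overlapped between genotypes and reached 7.29 in KO 4, while Fcgr2b over Fcgr3 was 170.5 to 219 in WT and 48.3 to 72.4 in KO libraries, and B2m over Fcgrt was 9.96 to 13.7 in WT and 6.25 to 8.81 in KO libraries.

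Cells other than endothelium can express the same receptors, so markers of each were measured beside them. Macrophages and monocytes express all 4 Fc gamma receptors and the gamma chain. Their 18 marker genes held 22.2 to 37.0 RPKM in WT and 27.1 to 31.7 RPKM in KO libraries, 4 were tested, none passed, Siglec1 was at 0 and Csf1r and Emr1 did not pass 0.16 RPKM. Their leading marker Lyz2 was at 13.6 ± 5.84 and 7.21 ± 1.39 RPKM (adjusted p = 0.250) and Cd14 at 8.36 ± 2.19 and 13.1 ± 2.38 RPKM (0.181).

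B cells express Fcgr2b as their Fc gamma receptor. Their 10 markers held 2.64 to 3.60 RPKM in WT and 1.75 to 1.93 RPKM in KO libraries, with none tested and Pax5 at 0. The highest were Cr2, at 1.17 ± 0.258 and 0.361 ± 0.310 RPKM, and Cd79a, at 0.833 ± 0.177 and 1.09 ± 0.338 RPKM. The sum of the 5 pan-leukocyte markers was 4.93 to 10.3 RPKM in WT and 3.23 to 4.73 RPKM in KO. Fcgr2b stood above each of these sums in every library, and both sums were lower in every KO library. A marker sum does not measure how much Fcgr2b a cell type brings. The part of B cells and other leukocytes in the Fcgr2b difference was not tested.

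Megakaryocytes and platelets carry the gamma chain with the collagen receptor encoded by Gp6. Their 11 markers held 137, 268 and 95.5 RPKM in WT and 62.2, 68.9 and 81.4 RPKM in KO. All 11 were tested and all had negative differences, with a median of -0.84. Of all 11035 genes tested, 5044 had negative differences. The groups did not overlap for 3 of the 11, beside 20.3% of all genes tested. Only Pf4 passed (59.0 ± 26.7 to 17.6 ± 2.01 RPKM, limma adjusted p = 0.0160), which is 9.09% of the list, beside 1.94% of all genes tested. WT 3 had the highest sum and, in Fcer1g, lay between the other WT libraries, while the KO libraries had the same order in the sum and in Fcer1g, with KO 4 highest. The part of these cells in the lower Fcer1g of the KO libraries was not tested.

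Follicular dendritic cells, the stromal cells of B cell follicles, also carry the inhibitory receptor. The 10 markers of follicular dendritic and reticular cells held 3805 to 4501 RPKM in WT and 4074 to 4706 RPKM in KO, mostly Clu. Of the 8 tested, 1 passed (12.5%, beside 1.94% of all genes tested). This was Cxcl13, the follicular chemokine, at 76.0, 67.6 and 43.7 RPKM in WT and 19.1, 14.2 and 14.6 RPKM in KO (adjusted p = 0.00159). Of the 8 differences, 3 were positive and 5 negative. WT 4 was the low WT library in Cxcl13 as in Fcgr2b. It was also the low WT library in Clu (log2 difference 0.13) and Mfge8 (-0.01), which did not pass. The sort took cells with CD31, and how many such stromal cells it let through was not measured. Their part in the Fcgr2b difference was not tested.

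Sinusoidal endothelium is the endothelium best known for Fcgr2b. Its 10 markers held 2092 to 2436 RPKM in WT and 1168 to 1352 RPKM in KO libraries. Most of that sum was Clec4g, and the other 9 markers held 550.5 to 639 RPKM in WT and 512 to 550.2 RPKM in KO. Of 7 tested genes 2 were lower, where 1.27% of all tested genes passed in that direction, namely Clec4g (1650.0 ± 132 to 698 ± 104 RPKM, adjusted p = 0.00106) and F8, which encodes coagulation factor VIII (adjusted p = 0.0122). The other 5 did not pass, with log2 differences of 0.53 for Ehd3, 0.24 for Oit3, 0.10 for Stab2, -0.02 for Mrc1 and -0.29 for Ctsl (adjusted p from 0.200 to 0.979). Whether fewer sinusoidal cells went with the lower Fcgr2b was not tested.

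NK cells, neutrophils, mast cells with basophils, and dendritic cells have Fc receptors as well. Their marker sums were 1.08 to 1.48, 0.485 to 16.5, 4.36 to 8.77 and 53.3 to 86.4 RPKM in WT and 0.429 to 1.39, 1.55 to 10.6, 4.03 to 5.71 and 66.3 to 76.7 RPKM in KO libraries, in that order. No NK cell or neutrophil marker reached the level for testing. Of the mast cell and basophil markers 2 were tested, and of the dendritic markers 1, and none passed. The dendritic sum was nearly all Zbtb46, which endothelium also expresses.

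Fcgr2b, Fcgr4, Fcgr3 and Fcer1g lie in that order over 274 kb of chromosome 1, with gaps of 42.9, 21.4 and 164 kb between them. The genes around them were not chosen for their own values. The place itself was set by a family chosen for differences in these same libraries. Of 50 other genes within 1 Mb of this stretch, 29 were tested and 6 passed (20.7%, against 1.94% of all genes tested), 4 higher and 2 lower, and the median difference of the 29 was 0.05 on the log2 scale. The stretch is 1 place in the genome and its genes are not independent of each other, so no test was made of this share.

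The called gene nearest to Fcer1g was Pcp4l1, a small relative of the calmodulin-binding protein PCP4, which lies between the 2 lower Fc receptor genes and 33.3 kb from Fcer1g. It fell from 99.7, 82.9 and 113 RPKM in WT to 20.8, 24.1 and 22.5 RPKM in KO (log2 -2.10, SE 0.13, limma adjusted p = 5.69e-05). KO 4 was level with the other KO libraries there, unlike in Fcer1g. Ppox, which encodes an enzyme of haem synthesis, lies 42.6 kb from Fcer1g and fell from 31.7 ± 3.56 to 16.4 ± 0.430 RPKM (log2 -0.92, SE 0.12, adjusted p = 0.00493).

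On the Fcgr2b side, the genes that passed rose. Other tested genes there did not pass, among them Nos1ap (log2 -0.55) and Uap1 (log2 -0.37), lower in the knockout, and Atf6 (log2 0.60), higher. Dusp12, a dual-specificity phosphatase gene 75.0 kb from Fcgr2b, rose from 13.0 ± 2.53 to 29.8 ± 1.99 RPKM (log2 1.19, SE 0.15, adjusted p = 0.00461). Olfml2b, which encodes an olfactomedin-like extracellular matrix protein and lies 278 kb from Fcgr2b, rose from 18.3 ± 4.0 to 69.3 ± 8.40 RPKM (log2 1.91, SE 0.16, adjusted p = 0.000357). Alyref2, an RNA export factor gene, and Pea15a, at 269 and 962 kb on the Fcer1g side, rose by less (log2 0.79, adjusted p = 0.0275, and log2 0.55, adjusted p = 0.0299), and each lost its call in 7 of 15 alternative settings.

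Other genes beside the Fc receptor genes did not pass. Tomm40l, 7.06 kb from Fcer1g, had a log2 difference of 0.27 (adjusted p = 0.322), and Sdhc, between Fcgr3 and Fcer1g, one of 0.04 (adjusted p = 0.842). Of the 3 genes tested between Fcgr2b and Fcer1g, only Pcp4l1 passed.

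A further relative of the family lies 28.3 kb from Fcgr2b. Fcrla, an Fc receptor-like gene of B cells, had 60, 88 and 20 reads in WT and 0 in each KO library. It was too low to be tested. The WT mean of 0.698 RPKM was 18.8-fold above the mean floor of 3 reads per KO library, 0.0372 RPKM. This figure takes the WT mean as exact and covers counting error in KO only. WT 4, at 0.2535 RPKM, was closer to that floor. WT 4 was again the lowest WT library, as in Fcgr2b and Fcgr3. Its neighbour Fcrlb, at 0.368 ± 0.249 and 0.346 ± 0.0269 RPKM, overlapped between the genotypes.

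**Figure D3:**
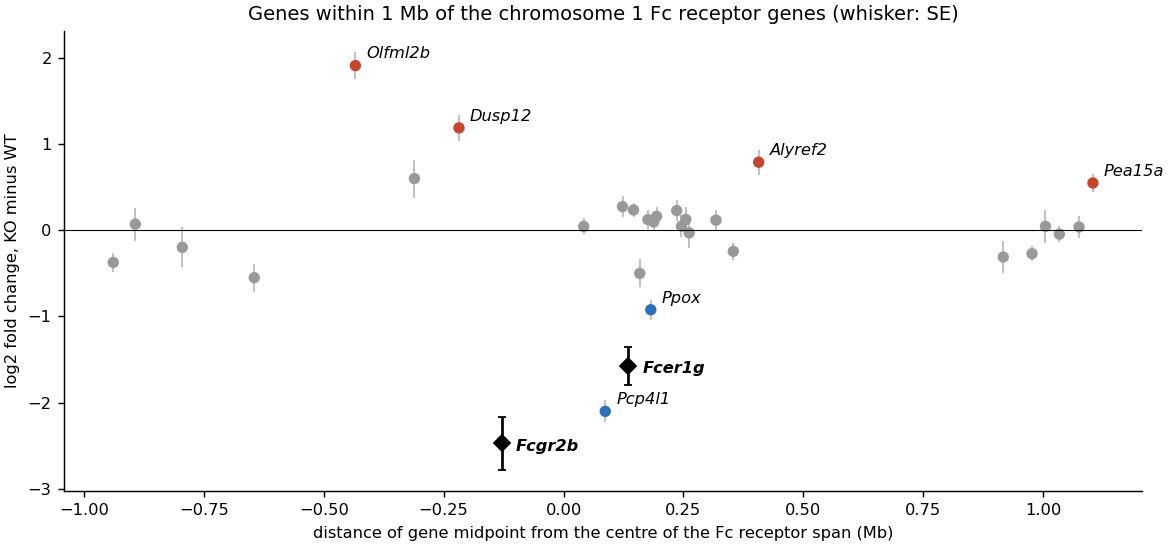
Log2 difference, KO minus WT (vertical axis, whisker SE), of the genes tested within 1 Mb of the Fc receptor genes on chromosome 1, by distance of the gene's midpoint from the centre of the stretch from Fcgr2b to Fcer1g (horizontal axis, Mb); red and blue points passed the threshold as higher and lower, grey points did not, and black diamonds are Fcgr2b and Fcer1g. Pcp4l1 and Ppox lie on the lower side beside Fcer1g, while Dusp12 and Olfml2b, beyond Fcgr2b, are higher.

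The promoters of the pair that was lower in the knockout are shown because they can be read side by side. They are the 250 bases before the start of each gene in RefSeq (GRCm38.p6), on the minus strand and 5′ to 3′ in the gene's sense, at chr1:170976072-170976321 for Fcgr2b and chr1:171234350-171234599 for Fcer1g. Capitals mark GGAAG, the core bound by ETS factors such as PU.1, on either strand (CTTCC in reverse).
Fcgr2b promoter: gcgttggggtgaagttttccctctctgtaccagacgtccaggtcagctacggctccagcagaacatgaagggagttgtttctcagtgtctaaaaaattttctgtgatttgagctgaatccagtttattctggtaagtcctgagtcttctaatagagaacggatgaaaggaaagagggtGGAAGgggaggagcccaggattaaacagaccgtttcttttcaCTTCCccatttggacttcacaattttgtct
Fcer1g promoter: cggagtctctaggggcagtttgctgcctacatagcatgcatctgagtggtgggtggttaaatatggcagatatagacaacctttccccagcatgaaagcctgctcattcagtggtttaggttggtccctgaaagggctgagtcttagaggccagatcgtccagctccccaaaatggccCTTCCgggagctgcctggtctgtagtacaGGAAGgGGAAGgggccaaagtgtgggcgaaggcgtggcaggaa
Fcgr2b has 2 matches and Fcer1g has 3. The motif was found in the promoters of all 6 genes and in 64.1% of 32851 promoters of the same length. For Fcgr3 the start in the promoter table lies inside the gene span given above, so its window is inside that span. The longer form GGAAGTG, also searched on both strands, which overlaps the shorter motif, was found among the 6 in Fcgr2b alone and in 8.6% of all promoters. A match describes letters in this window and says nothing of binding in these cells.

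The genes that work with the receptors were read as lists. The 8 lists of genes that bind, pair with or act below Fc receptors name 114 symbols, of which 103 were in the table and 54 were tested. Of these, 1 was higher and none lower (1.85%, beside 1.94% of all genes tested), 27 differences were positive and 27 negative, and their median was -0.03, beside 0.03 for all genes tested. Lists and genes had been chosen with earlier results of these data known.

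The called gene was Dok2, an adaptor that recruits RasGAP and is used by inhibitory receptors. It rose from 8.92, 7.27 and 7.51 RPKM in WT to 112, 97.0 and 93.1 RPKM in KO (log2 3.59, SE 0.12, limma adjusted p = 9.08e-07). Dok2 is on chromosome 14, as is Stab1. The other 10 tested genes of the inhibitory list did not pass. Among them are the phosphatase genes downstream of the ITIM. Ptpn11, which encodes SHP-2, was at 9.06 ± 1.29 and 9.66 ± 1.01 RPKM (adjusted p = 0.789) and Inppl1, which encodes SHIP2, at 5.58 ± 2.42 and 6.49 ± 0.612 RPKM (0.629). Inpp5d, which encodes SHIP1, was at 4.46 ± 1.67 and 5.22 ± 0.719 RPKM (adjusted p = 0.631) and Ptpn6, which encodes SHP-1, at 1.33 ± 0.843 and 0.475 ± 0.478 RPKM (0.303). Rasa1, the RasGAP gene, was at 20.3 ± 0.538 and 12.9 ± 3.99 RPKM (0.132) and the ubiquitin ligase gene Cblb at 6.96 ± 0.785 and 8.61 ± 0.477 RPKM (0.357).

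Of the 27 tested genes that act below the ITAM none passed, and the median of this list was 0.01. The kinase that binds the phosphorylated ITAM, Syk, was at only 1.19 ± 0.586 RPKM in WT and 1.01 ± 0.142 RPKM in KO. Src-family kinase genes were better expressed, with Lyn at 34.3 ± 2.54 and 42.8 ± 1.78 RPKM (adjusted p = 0.180), Fyn at 102 ± 8.0 and 126 ± 4.51 RPKM (0.151) and Yes1 at 30.8 ± 3.22 and 20.2 ± 5.39 RPKM (0.123). The kinase gene Tec had a difference of -0.69 (0.154). Without KO 4, Yes1 (log2 -0.83, adjusted p = 0.0202), Rasa1 (log2 -0.90, adjusted p = 0.0224) and the adaptor gene Nck1 (log2 -0.60, adjusted p = 0.0369) passed as lower in the knockout. The count over all lists was then 4 of 54 tested. Over all 11035 genes tested it was 418 without KO 4, in place of 214, so nothing particular to the lists is read from this count. In Yes1 and Rasa1, as in Fcer1g, KO 4 was the KO library nearest to the WT group.

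None of the 9 tested genes of the neonatal receptor's partners and recycling route passed, with a median of -0.07. Besides B2m they include Rab5a, a GTPase gene of early endosomes, at 46.0 ± 9.64 and 33.2 ± 10.5 RPKM (adjusted p = 0.321), and Rab11fip5, which acts with Rab11 in recycling, at 20.6 ± 4.37 and 25.5 ± 3.8 RPKM (0.409). Other ITAM chains were low, with Tyrobp at 3.59 ± 0.595 and 2.41 ± 0.651 RPKM (0.295) and Cd247 at 3.67 ± 0.673 and 3.31 ± 0.501 RPKM (0.762).

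The other ITIM receptors gave 3 tested genes and no call. Pecam1, which encodes CD31 and was used in the sort, was at 294 ± 28.5 and 344 ± 15.3 RPKM (adjusted p = 0.290), Ceacam1 at 5.64 ± 0.508 and 4.58 ± 1.67 RPKM (0.512) and Sirpa at 9.43 ± 2.5 and 9.28 ± 0.603 RPKM (0.990). In the WT libraries Fcgr2b was thus the second most abundant of the tested ITIM receptor genes after Pecam1. Of 13 further Fc receptor and Fc receptor-like genes only Trim21, the receptor for antibodies in the cytosol, was tested (adjusted p = 0.637), and of 7 further gamma-chain receptors only Gp6 (adjusted p = 0.413). The immunoglobulin and pentraxin ligands matched 4 of 13 symbols, and none of these was tested.

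**Figure D4:**
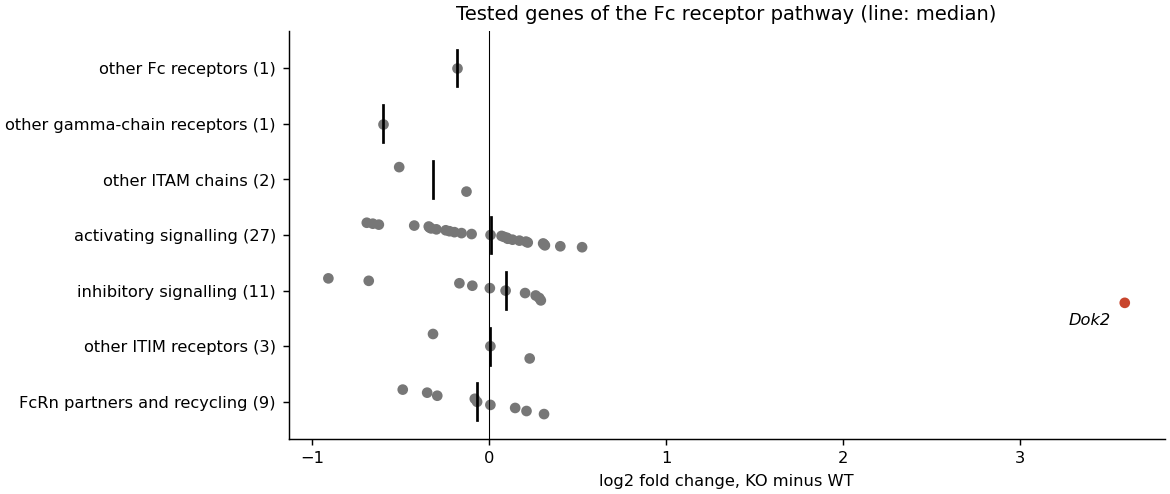
Log2 difference, KO minus WT (horizontal axis), of each tested gene in the Fc receptor signalling lists, with the number tested in parentheses and a vertical line at each list's median; the list of immunoglobulin and pentraxin ligands had no tested gene and is not drawn. Dok2 (red, 3.59) is the gene that passed the threshold, and the other points lie between -0.91 and 0.53.

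The genes most like each of the 2 lower members across the 6 libraries are given as a description, since a gene that differs between the genotypes in the same direction scores high in this measure. Log2 levels of Fcgr2b ran closest to those of Cib2 (Pearson r = 0.989), Cxcl13 (0.988) and 2210020M01Rik (0.987), among 32 genes over 0.95. Those of Fcer1g ran closest to Ppp1r12a (0.996), a regulatory subunit of myosin phosphatase, Zfp280d (0.996) and 4922501C03Rik (0.994), among 166 genes over 0.95. Ppp1r12a was at 14.8 RPKM in WT and 7.83 RPKM in KO on average and passed as lower, as did Zfp280d at 5.25 and 2.57 RPKM. Fcgr2b and Fcer1g had r = 0.835 with each other.

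Once each genotype's mean was taken out, the deviations of Fcgr2b and Fcer1g had r = -0.277 over the 6 libraries. Those of Fcgr2b and Fcgrt had r = 0.87. Few independent points remain after the means are removed. The Fcer1g deviations lay mostly in the KO libraries (log2 SD 0.54 in KO and 0.05 in WT). Neither r therefore tells whether the genes ran together within a genotype. The genes nearest to Fcgr2b in this measure were D830046C22Rik (0.998), Dok1 (0.997) and Abhd8 (0.996), of 95 over 0.95, and nearest to Fcer1g were C430048L16Rik (0.998), Pls3 (0.997) and Ddx10 (0.995), of 69 over 0.95. All of these points share the same 6 libraries and their depth.

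Some values can hold reads of other transcripts. The libraries do not mark strand, so reads of both strands cannot be told apart where genes share exons. The span of an antisense gene overlaps that of Fcgr2b over 3175 bases (Gm38204) and that of Fcgrt over 5331 bases (Gm45669). These spans include introns, and the counted lengths were 1546 bases for Fcgr2b and 1738 bases for Fcgrt. Overlap of exons was not measured. In the same way, the span of Fcgr3 holds a microRNA gene over 62 bases on the same strand. That of Fcgr4 holds a small nuclear RNA gene over 165 bases, also on the same strand.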

How the data were processed

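The authors deposited expression as RPKM for 23337 genes in 6 libraries, and a table of 13742 genes with log2 fold changes and adjusted p-values, per the file headers. Sorted cells gave SMART-Seq v4 cDNA and Nextera XT libraries, which do not mark strand, per the labels' protocols. Per the submitters' processing notes, the tools were STAR 2.5.2b, Subread, edgeR and limma and the build mm10; order and settings are not given in the sources used here. Columns were assigned to a genotype only, since their numbers do not match the labels' replicate numbers.

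Each gene's values were whole multiples of what 1 read is worth (all 17683 genes above 0, tolerance 0.001), which gave reads and depth. RPKM are not counts, so log2(RPKM + 0.5) was compared between genotypes by limma (version 3.58.1, R 4.3.3, variance trend on intensity) over 11035 genes that reached 1 RPKM in 3 or more libraries. Benjamini-Hochberg adjustment covered these genes, with a threshold of 0.05. Fold changes on this scale understate the change of low genes. At this depth counting error is small above several RPKM, and precision is set by how replicate libraries differ.

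The 6 genes, the signalling lists and the 11 marker lists were chosen with earlier results of these data known. Named are the 6 genes, all called genes of the signalling lists and within 1 Mb on chromosome 1, up to 3 further genes of smallest p per list, the leading markers and the 3 most alike genes. Nck1, Inpp5d, Inppl1, Ptpn11, Ehd3, Oit3, Mrc1, Stab2, F8, Syk, Lyn, Fcrla, Fcrlb, Tomm40l, Sdhc, Nos1ap, Uap1, Atf6 and Mfge8 were named after their values were seen. Sequences were read from GENCODE and RefSeq files of GRCm38, which matched all 6 genes. Figures used Python 3.11.15 and matplotlib 3.10.9. Some genes of these comparisons are not reported here.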

Additional observations from a re-analysis of the deposited data

How the results depend on the processing

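The alternatives were other pseudocounts, filters, scalings and variance models, voom on recovered reads, and leaving out each library. Without a filter on low values 77 genes passed in place of 214, and Fcgr2b and Fcer1g were not among them. Leaving out 1 library gave 56 to 418 calls over all genes (93 when WT 4 was dropped, 83 for KO 2, 56 for KO 3 and 418 for KO 4) and 1 to 4 calls in the signalling lists, 4 of them when KO 4 was dropped. The calls near the Fc receptor genes numbered 4 to 6. More genes were tested without a filter, and leaving out a library left fewer libraries in the fit. The cause of the changed counts was not tested. In all 15 alternatives Fcgr2b lay between -2.89 and -2.18, Fcer1g between -1.88 and -1.36 and Fcgrt between 0.34 and 0.47 (log2), and Dok2, Pcp4l1, Olfml2b, Dusp12 and Ppox kept their calls. No paired analysis was possible because the numbers of the deposited columns do not match the labels' replicate numbers. Depth limits Fcgr1, Fcgr3 and Fcgr4.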
